A study of Mus musculus with 8 samples.

Results

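The genes described here are 10 transcripts that mark macrophages, among them the resident macrophages of the kidney: Csf1r, Adgre1, Cd68, C1qa, C1qb, C1qc, Tyrobp, Lyz2, Ptprc and Cx3cr1. They were chosen by symbol, and each of the 10 matched a single Ensembl gene ID among the 49315 in the count table. Messenger RNA was sequenced from 8 mouse kidneys, 4 labelled control and 4 labelled conditional knockout. The knockout targets Kdm1a, which encodes the histone demethylase LSD1. The extraction protocol calls the control tissue wild type. The labels used here give no recombinase driver, strain, age or sex and no treatment, and they do not say whether the 4 replicates of a group are separate animals, so p-values measure the spread between these libraries. The deletion therefore cannot be placed in a cell type from the labels, and whether the macrophages themselves carry it is not known here.

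Macrophages are phagocytes that settle in the kidney before birth, live between the tubules and depend on signals through the Csf1 receptor. They take up debris and immune complexes, and they are a main source of the C1q protein that starts the classical complement pathway. Resident cells often carry scavenger receptors such as Mrc1 and Cd163, while cells that present antigen to T cells carry MHC class II proteins. Whole kidney was sequenced, so fewer cells of a type and less RNA per cell cannot be told apart in any value below.

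Levels are given as counts per 1000000 of the scaled library total (CPM). Library totals ran from 19524945 to 28544511 counts, so that 1 count was worth 0.0350 to 0.0512 CPM before the totals were scaled. The libraries differed in composition. The 16 proximal tubule genes, which mark the main kidney epithelium, summed to 787 to 3262 CPM in the controls and to 61.2 to 427 CPM in the knockouts, and all 16 were called lower in the knockout. Adrenal transcripts summed to 3424 and 491 CPM in knockout replicates 1 and 4 and to 24.3 to 194 CPM elsewhere. Germline genes summed to 40.9 CPM in control replicate 2 and to 4.24 CPM or less elsewhere, and that library and knockout replicates 1 and 4 lacked Y-linked transcripts. Of 12 endothelial genes 1 was called lower in edgeR and 6 with DESeq2, 8 had an unadjusted p under 0.05 in edgeR, and the median log2 fold change was −0.44. Over all genes tested, edgeR called 8.27% lower. In edgeR none of the tested adrenal (12), germline (2), red blood cell (8), cell cycle (14) and Y-linked (4) genes was called, and 8, 0, 1, 4 and 0 of them had an unadjusted p under 0.05. With DESeq2, 6 adrenal genes were called higher and 2 cell cycle genes lower, and none of the germline, red blood cell and Y-linked genes was called.

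In the knockout kidneys, Ptprc and the C1q chains C1qa and C1qc were higher, with Ptprc rising 1.90-fold and the 2 chains by 1.46-fold and 1.44-fold, while the other 7 genes were not called in the edgeR test used throughout. Of the 10 genes, 3 were called higher and 0 lower at an adjusted p under 0.05 (quasi-likelihood test of edgeR, adjusted over 18485 genes), and 4 had an unadjusted p under 0.05. DESeq2 called 4 higher and 0 lower, where 10.1% of all genes were called higher. Over all genes tested, 6.61% were called higher, 8.27% lower and 14.9% in either direction. The 3 called genes were also the only members whose groups did not overlap, which 9.29% of all genes tested did toward higher values in the knockout, 9.58% toward lower and 18.9% in either direction. The calls over all genes were 1222 higher and 1529 lower, and 1571 higher (8.5%) and 1174 lower (6.35%) with library totals in place of trimmed-mean scaling. The median log2 fold change (knockout minus control) was 0.16 over the 10 genes and 0.00 over all genes tested. All 10 passed the filter on low counts, the fewest counts in a library being 45, for Cx3cr1. Among 36 further macrophage genes tested, 7 were called higher, among them Mrc1, Pf4 and Cd163, and 29 were not called. Of 11 MHC class II and dendritic cell genes tested, 6 were called lower, among them H2-Eb1 and H2-Aa. With 1 library dropped, Cd163 was called in 5 of 8 fits and H2-Aa in 2 of 8.

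The start regions of 4 members are shown as examples: Ptprc and C1qc, which were called higher in the knockout, and C1qb and Cd68, which were not called. The sequences come from RefSeq (GRCm38.p6), run 5′ to 3′ on the minus strand toward a RefSeq transcript start, and stop where an annotated exon begins. Capitals mark GAGGAA, the core of sites for the myeloid factor PU.1, or TGACTCA, the AP-1 site, on either strand.
C1qb (chr4:136886201-136886450): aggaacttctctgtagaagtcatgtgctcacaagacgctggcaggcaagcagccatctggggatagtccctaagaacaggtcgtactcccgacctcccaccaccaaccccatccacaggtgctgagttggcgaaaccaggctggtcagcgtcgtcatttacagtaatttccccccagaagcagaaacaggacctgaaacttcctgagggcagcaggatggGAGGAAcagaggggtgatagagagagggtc
C1qc (chr4:136893066-136893164): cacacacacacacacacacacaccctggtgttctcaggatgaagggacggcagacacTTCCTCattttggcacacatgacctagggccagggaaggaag
Ptprc (chr1:138175307-138175555): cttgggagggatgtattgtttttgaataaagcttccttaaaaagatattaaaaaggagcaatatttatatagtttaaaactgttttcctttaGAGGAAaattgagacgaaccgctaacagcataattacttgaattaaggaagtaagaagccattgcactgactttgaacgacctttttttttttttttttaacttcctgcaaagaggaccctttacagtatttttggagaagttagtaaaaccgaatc
Cd68 (chr11:69666171-69666420): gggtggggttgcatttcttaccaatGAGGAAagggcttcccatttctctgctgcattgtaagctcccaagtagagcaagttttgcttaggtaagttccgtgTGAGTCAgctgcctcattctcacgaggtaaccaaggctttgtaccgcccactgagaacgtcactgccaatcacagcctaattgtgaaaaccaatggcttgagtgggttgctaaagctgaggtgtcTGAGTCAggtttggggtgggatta

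The 4 windows were picked among 7, and each holds GAGGAA once. Of the others, that of Lyz2 (201 bases) and a second of Ptprc (70 bases) held none of the motifs searched, and that of Cx3cr1 had no base outside exons. The first printed base of GAGGAA or its reverse complement lay 30 bases before the RefSeq start of C1qb, 193 before that of C1qc, 158 before that of Ptprc and 225 before that of Cd68. For Ptprc and C1qc the RefSeq start used lies inside the gene as the count table places it, so the Ptprc window is also inside that gene and these distances do not run to the ends given below. Of 32851 RefSeq windows of 250 bases, 23.3% held GAGGAA on either strand, so a single match is common. Cd68 held 2 matches to TGACTCA, which occurred in 4.46% of all windows. TGCTGAC, a half-site of MAF factors, was in 3.81% of all windows and in none of these 4. RefSeq windows were matched for 6 of the 10 genes. The C1qc stretch covers only 99 bases, and none of these matches is evidence of binding.

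Ptprc encodes CD45, a membrane phosphatase found on nearly all leukocytes (ENSMUSG00000026395, chromosome 1, 138062861 to 138175708, minus strand, GRCm38). Ptprc was at 16.6, 26.3, 22.4 and 15.8 CPM in control replicates 1 to 4 and 37.1, 40.5, 35.0 and 41.7 CPM in knockout replicates 1 to 4. Every knockout lay above every control. The mean rose from 20.3 ± 4.99 to 38.6 ± 3.07 CPM (SD, n = 4 each), a log2 fold change of 0.93 (SE 0.16, edgeR adjusted p 0.0146). With 70 ways to assign the libraries, the two-sided exact permutation p was 0.0286, the smallest possible. The call was lost without knockout replicate 4 (log2 fold change 0.91, edgeR adjusted p 0.0571), and without both knockout replicates 1 and 4 (0.90, adjusted p 0.168). A short predicted transcript inside the gene on the same strand, A130071D04Rik, had at most 0.351 CPM in any library.

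C1qa, C1qb and C1qc encode the 3 chains that assemble into C1q, the recognition unit of the complement C1 complex. They lie side by side on the minus strand of chromosome 4 within 18.7 kb: C1qb (ENSMUSG00000036905, 136880129 to 136886187), C1qc (ENSMUSG00000036896, 136889804 to 136893065) and C1qa (ENSMUSG00000036887, 136895917 to 136898803). C1qa stood at 17.4, 20.2, 22.1 and 16.5 CPM in the controls and at 23.4, 29.2, 31.0 and 27.5 CPM in the knockouts, and the groups did not overlap. Its log2 fold change was 0.55 (SE 0.12, edgeR adjusted p 0.0261). C1qc stood at 17.9, 17.7, 20.9 and 19.2 CPM in the controls and at 24.4, 30.1, 29.2 and 25.7 CPM in the knockouts, again with no overlap. Its log2 fold change was 0.53 (SE 0.10, edgeR adjusted p 0.0173). For both genes the exact permutation test gave p = 0.0286.

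C1qb was at 22.6, 20.4, 25.3 and 21.4 CPM in the controls and at 25, 35.1, 36.1 and 25 CPM in the knockouts. Knockout replicates 1 and 4 lay just under control replicate 3, so the groups overlapped. The log2 fold change was 0.44 (SE 0.15, 95% interval 0.11 to 0.76, edgeR adjusted p 0.0712; exact permutation p = 0.0857), close to that of its neighbours but not called. C1qb was called with DESeq2 (adjusted p 0.0361, where 10.1% of genes were called higher) and with library totals in place of trimmed-mean scaling (0.0419, 8.5%). It was also called with a covariate for Y-linked (0.0226, 5.63%) or adrenal transcripts (0.0343, 3.2%). The share of each of the 3 chains in their sum overlapped between the groups. C1qa made up 28.8% to 34.7% in the controls and 30.9% to 35.2% in the knockouts. C1qb made up 34.9% to 39.0% and 31.9% to 37.5%, and C1qc 30.4% to 33.7% and 30.3% to 33.5%. Dropping each library in turn, the call of C1qa was lost in 5 of 8 cases (without control replicate 1, 3 or 4 or knockout replicate 2 or 4), with adjusted p values up to 0.0761. That of C1qc was lost in 3 (without control replicate 1 or knockout replicate 2 or 4), with values up to 0.0548. The log2 fold changes with 1 library dropped stayed between 0.48 and 0.62 for C1qa and between 0.48 and 0.58 for C1qc. Without both knockout replicates 1 and 4, C1qa had 0.66 and C1qc 0.64, not called (edgeR adjusted p 0.149 and 0.131).

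The C1q genes are neighbours of the targeted gene, with C1qb 277 kb beyond the end of Kdm1a on chromosome 4. Kdm1a itself stood at 110, 112, 120 and 110 CPM in the controls and at 94.0, 95.3, 90.9 and 94.2 CPM in the knockouts, with no overlap. It fell by 0.27 on the log2 scale (SE 0.05, edgeR adjusted p 0.0194). The labels do not describe the chromosome around the conditional allele, so linkage to it and loss of Kdm1a cannot be told apart for these genes.

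**Figure D1:**
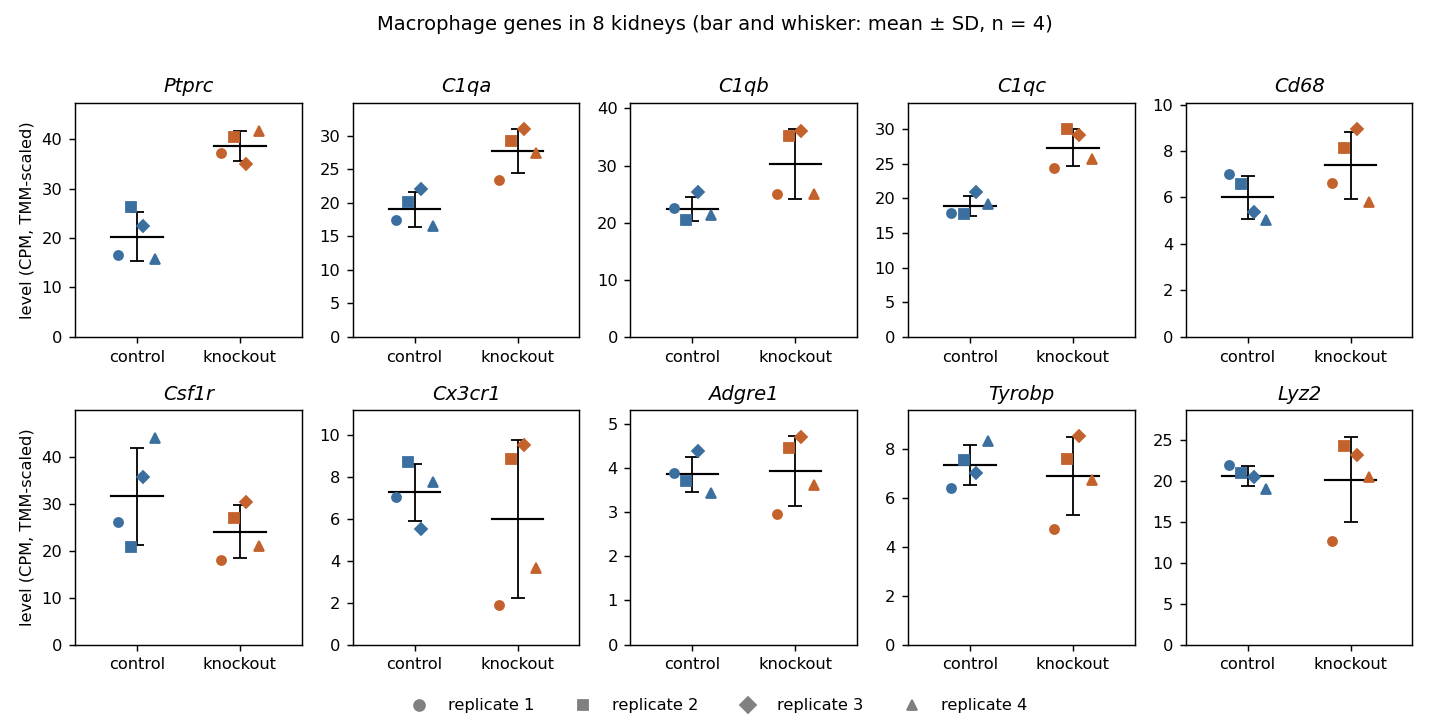
Level of each of the 10 macrophage genes (vertical axis, CPM after trimmed-mean scaling, starting at 0) in 4 control and 4 knockout kidneys, with 1 point per library, its shape giving the replicate number, and the mean ± SD drawn in black. Ptprc, C1qa and C1qc do not overlap between the groups, and knockout replicate 1 is the lowest library for Csf1r, Cx3cr1, Adgre1, Tyrobp and Lyz2.

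Csf1r and Cx3cr1 encode receptors that keep macrophages alive and in place. Csf1r, the receptor for Csf1 and Il34 (ENSMUSG00000024621, chromosome 18, 61105572 to 61132149, plus strand), was at 26.1, 20.7, 35.6 and 44.0 CPM in the controls and at 18, 27.0, 30.3 and 20.9 CPM in the knockouts. The ranges overlapped widely, and the log2 fold change of −0.40 (SE 0.24, 95% interval −0.95 to 0.16) was not called (edgeR adjusted p 0.270). Control replicates 2 and 4, the lowest and highest controls for Csf1r, were also the lowest and highest for the summed proximal tubule genes (787 and 3262 CPM), and the part of that difference in Csf1r was not tested. Without control replicate 2 and knockout replicate 3 together, Csf1r was called lower (−0.69, edgeR adjusted p 0.0300), in a fit that called 22.2% of all genes lower. Hmgxb3 overlaps Csf1r on the opposite strand, at 23.2 to 34.5 CPM over the 8 libraries. Reads in any exons that the pair shares cannot be told apart without strand, and the extent of such exons was not measured.

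Cx3cr1, the receptor for fractalkine (ENSMUSG00000052336, chromosome 9, 119901616 to 120069879, minus strand), was the most uneven member. Controls had 7.05, 8.72, 5.53 and 7.77 CPM, and knockouts 1.90, 8.84, 9.55 and 3.67 CPM. Knockout replicates 2 and 3 thus lay above every control and replicates 1 and 4 below every control. The log2 fold change was −0.28 (SE 0.44, 95% interval −1.28 to 0.72, edgeR adjusted p 0.679). Without knockout replicates 1 and 4 it was 0.34 (adjusted p 0.403). These 2 libraries are also those with the most adrenal transcripts. They are also the knockouts that lacked Y-linked transcripts, so the 2 traits cannot be told apart among the knockouts. With an adrenal covariate the log2 fold change was 0.00 (adjusted p 0.996). The part of either trait in the level of Cx3cr1 was not tested. As deposited, the gene spans 9 other annotated genes, so its counts are less certain than those of the other members.

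Adgre1, Cd68, Lyz2 and Tyrobp are surface and lysosomal genes of mature phagocytes. Adgre1, which encodes the macrophage antigen F4/80 (ENSMUSG00000004730, chromosome 17, 57358686 to 57483529), was at 3.89, 3.71, 4.40 and 3.45 CPM in the controls and 2.96, 4.47, 4.71 and 3.63 CPM in the knockouts. Its log2 fold change was 0.03 (SE 0.19, 95% interval −0.39 to 0.45). Cd68, a lysosomal membrane protein (ENSMUSG00000018774, chromosome 11, 69664213 to 69666153), was at 7.01, 6.58, 5.37 and 5.05 CPM in the controls and 6.63, 8.13, 8.96 and 5.79 CPM in the knockouts. Here 2 knockouts lay above every control, and the log2 fold change of 0.30 (SE 0.18, 95% interval −0.12 to 0.71) was not called.

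Lyz2, the lysozyme of myeloid cells (ENSMUSG00000069516, chromosome 10, 117277334 to 117282274), was nearly level among controls at 21.9, 20.9, 20.4 and 19.0 CPM, and stood at 12.7, 24.2, 23.2 and 20.5 CPM in the knockouts. Knockout replicate 1 was low and the other 3 lay around the controls. The log2 fold change was −0.03 (SE 0.18, 95% interval −0.44 to 0.38). Its close paralog Lyz1 had at most 4 counts in any library. Tyrobp, the DAP12 adaptor that passes signals from Trem2 and other receptors (ENSMUSG00000030579, chromosome 7, 30413760 to 30417585), was at 6.39, 7.56, 7.02 and 8.32 CPM in the controls and 4.73, 7.58, 8.51 and 6.73 CPM in the knockouts. Its log2 fold change was −0.09 (SE 0.19, 95% interval −0.52 to 0.34). The edgeR adjusted p values of these 4 genes ran from 0.268 for Cd68 to 0.926 for Adgre1 and Lyz2, and the intervals leave room for changes of either sign. The direction of Adgre1, Lyz2, Tyrobp and Cx3cr1 turned when single libraries were left out, and that of Lyz2 also turned with library totals (0.04).

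Levels were ordered per kb of exon length. In controls C1qb was highest at 20.6 CPM per kb, followed by C1qa at 18.3, Lyz2 at 16.2, Tyrobp at 11 and C1qc at 9.82 CPM per kb. Csf1r (6.47), Cd68 (4.77), Cx3cr1 (1.61), Adgre1 (1.19) and Ptprc (1.11 CPM per kb) followed. In knockouts C1qb and C1qa were again first, at 27.8 and 26.7 CPM per kb, and Ptprc moved from place 10 to place 8, at 2.11 CPM per kb. Neighbours in this order often overlapped over the 4 libraries, in 6 of 9 pairs in the controls and 7 of 9 in the knockouts. In the controls only Lyz2 above Tyrobp, C1qc above Csf1r and Cd68 above Cx3cr1 were separate. In the knockouts only C1qa above Lyz2 and Csf1r above Ptprc were.

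Ptprc and the C1q chains were also compared with the other members within each library. The summed level of the 6 genes other than Ptprc and the C1q chains was 72.3, 68.2, 78.3 and 87.5 CPM in the controls and 46.9, 80.2, 85.2 and 61.2 CPM in the knockouts, and the groups overlapped. Relative to that sum, the C1q chains stood at 0.652 to 0.872 in the controls and 1.13 to 1.55 in the knockouts. Ptprc relative to the same sum stood at 0.180 to 0.386 in the controls and 0.411 to 0.791 in the knockouts. The ratio of C1qa to Adgre1 was 4.46 to 5.45 in the controls and 6.54 to 7.93 in the knockouts, whereas Lyz2 to Adgre1 was 4.63 to 5.63 and 4.30 to 5.63. These ratios describe the members and were given no test. The members were split by which of them rose in these same data. Higher ratios in the knockouts therefore follow from that split and add no support to it.

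**Figure D2:**
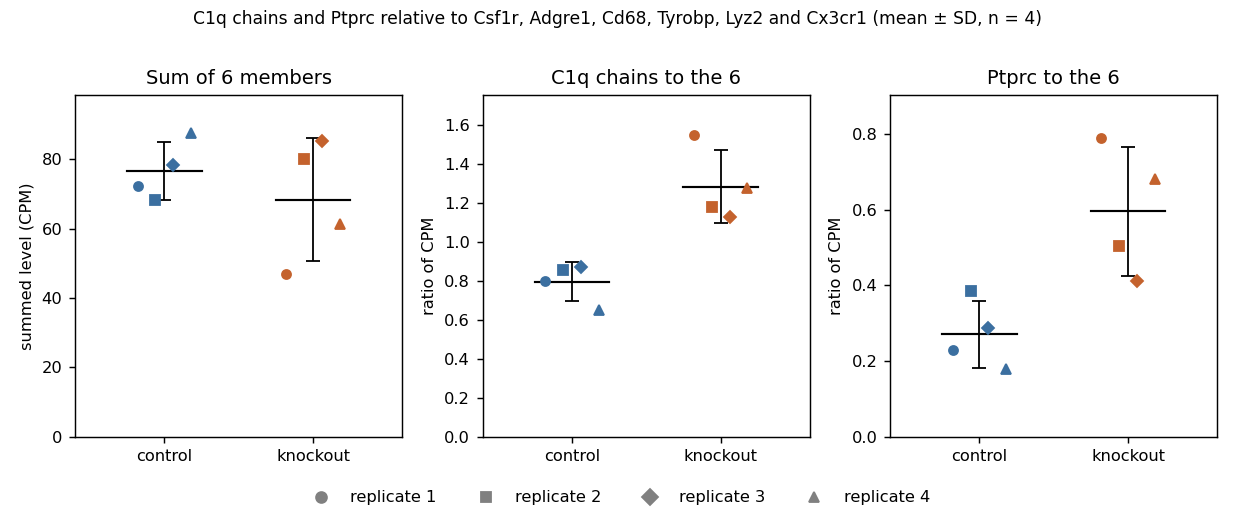
Left, the summed level in CPM of Csf1r, Adgre1, Cd68, Tyrobp, Lyz2 and Cx3cr1 in each library; middle and right, the ratio of the summed C1q chains and of Ptprc to that sum (points are libraries by replicate number, black marks are mean ± SD, n = 4). The sums overlap between groups, at 68.2 to 87.5 and 46.9 to 85.2 CPM, while both ratios are higher in each knockout than in any control. The members were split by which of them rose in these same data, so the separation of the ratios is no further support.

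Sex-linked transcripts split both groups. The 4 Y-linked genes summed to 229 to 289 CPM in control replicates 1, 3 and 4 and knockout replicates 2 and 3, and to 2.63 CPM or less in control replicate 2 and knockout replicates 1 and 4. Among the libraries with Y-linked transcripts, Ptprc was at 15.8 to 22.4 CPM in the 3 controls and at 35.0 and 40.5 CPM in the 2 knockouts. Among those without, it was at 26.3 CPM in the control and at 37.1 and 41.7 CPM in the knockouts. Since the groups do not overlap for Ptprc, C1qa and C1qc, any split of the libraries shows the same order, and these values are a description only. When the Y-linked level entered the fit, Ptprc, C1qa and C1qc were called in edgeR (adjusted p 0.0185, 0.0336 and 0.0130).

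Among 40 further macrophage genes listed for comparison, some resident and scavenger receptor genes were called higher, while others were not. Of the 36 tested, 7 were called higher and 0 lower (12 and 0 with DESeq2), 17 had an unadjusted p under 0.05, and the median log2 fold change was 0.27. Over all genes tested, 6.61% were called higher (10.1% with DESeq2). Of the 36, 23 had a log2 fold change above 0 and 13 below. Among those not called were Stab1 (0.24), Cd14 (−0.05), Maf (−0.28) and Apoe (−0.24). Pf4, a chemokine of platelets and of resident macrophages, had 8.85, 12.1, 9.28 and 8.77 CPM in the controls and 22.7, 22.1, 21.1 and 21.1 CPM in the knockouts, with no overlap (1.16, SE 0.12, edgeR adjusted p 0.00496). Mrc1, the mannose receptor, had 15.4, 16.4, 16.6 and 14.1 CPM in the controls and 28.9, 29.0, 26.2 and 25.7 CPM in the knockouts, also with no overlap (0.81, SE 0.09, adjusted p 0.00506). Both were called whichever of the 8 libraries was dropped. Cd163, the haemoglobin scavenger receptor, went from 4.23 to 7.37 CPM in the controls to 10.1 to 17.9 CPM in the knockouts (1.2, SE 0.24, adjusted p 0.0192), and lost its call when control replicate 1 or knockout replicate 1 or 4 was dropped (adjusted p up to 0.0647).

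The other 4 genes called in that list are Lyve1, Folr2, Msr1 and Slc40a1, named after their values were seen. Lyve1, a hyaluronan receptor also carried by lymphatic endothelium, changed by 1.15, the folate receptor gene Folr2 by 0.99, the scavenger receptor gene Msr1 by 0.70 and the iron exporter gene Slc40a1 by 0.45 (edgeR adjusted p 0.0270, 0.0302, 0.0332 and 0.0405). Their controls and knockouts did not overlap except for Slc40a1. Without knockout replicate 4 only Pf4 and Mrc1 of the list were called. Among genes of lineage control, 2 that were not called are given here: Spi1, which encodes PU.1, had −0.16 (adjusted p 0.676) and Irf8 0.12 (0.666). Trem2, a lipid receptor that signals through Tyrobp, had 0.71 (adjusted p 0.0763). Fibroblast and matrix genes were also higher, with 4 of 11 called, against 6.61% of all genes tested. Their summed level was 3744 to 5055 CPM in controls and 4338 to 6850 CPM in knockouts. The part of fibroblasts in the values of the macrophage genes was not tested.

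Genes of antigen presentation went the other way. Of 11 tested genes in the list of MHC class II and dendritic cells, 6 were called lower and 0 higher, as many as with DESeq2, against 8.27% called lower over all genes tested, and the median log2 fold change was −0.75. H2-Eb1, an MHC class II beta chain, stood at 13.2, 7.09, 10.5 and 9.82 CPM in the controls and 2.75, 4.12, 4.05 and 4.71 CPM in the knockouts. All knockouts lay below all controls (−1.38, SE 0.23, edgeR adjusted p 0.0132), and it was called whichever library was dropped, with adjusted p values up to 0.0490. H2-Aa, an alpha chain, stood at 5.37, 2.18, 4.12 and 3.82 CPM in the controls and 1.31, 1.05, 2.11 and 1.47 CPM in the knockouts (−1.37, SE 0.31, adjusted p 0.0264). Zbtb46, a factor of dendritic cells and of endothelium, fell by 0.37 on the log2 scale (adjusted p 0.0223). With 1 library dropped, H2-Aa was called in only 2 of 8 fits and Zbtb46 in 3 of 8.

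The remaining called genes of that list, named after their values were seen, were H2-Ab1 (−0.81), Cd74, the invariant chain (−1.07), and H2-DMb1 (−0.75), with edgeR adjusted p values of 0.0304, 0.0422 and 0.0470. Each was called in only 2 of 8 fits with 1 library dropped. Ciita, the master activator of class II genes, was at 1.59 CPM or less in every library and was not called (−0.80, adjusted p 0.132). Markers of dendritic cells ranged widely in level, from Xcr1 at 0.278 CPM or less and Flt3 at 0.519 CPM or less to Clec9a at 1.35 to 2.41 CPM and Batf3 at 4.07 to 7.96 CPM. Clec9a (−0.28, edgeR adjusted p 0.436) and Batf3 (−0.17, 0.575) were not called. Control replicate 2 was the lowest control for H2-Eb1, H2-Aa, H2-Ab1, H2-DMb1 and Cd74. Without both knockout replicates 1 and 4, 0 genes of this list were called, and 1 gene of 19167 tested was called at all (0.00522%). With the Y-linked covariate 3 genes of the list were called, and with the adrenal covariate 2.

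**Figure D3:**
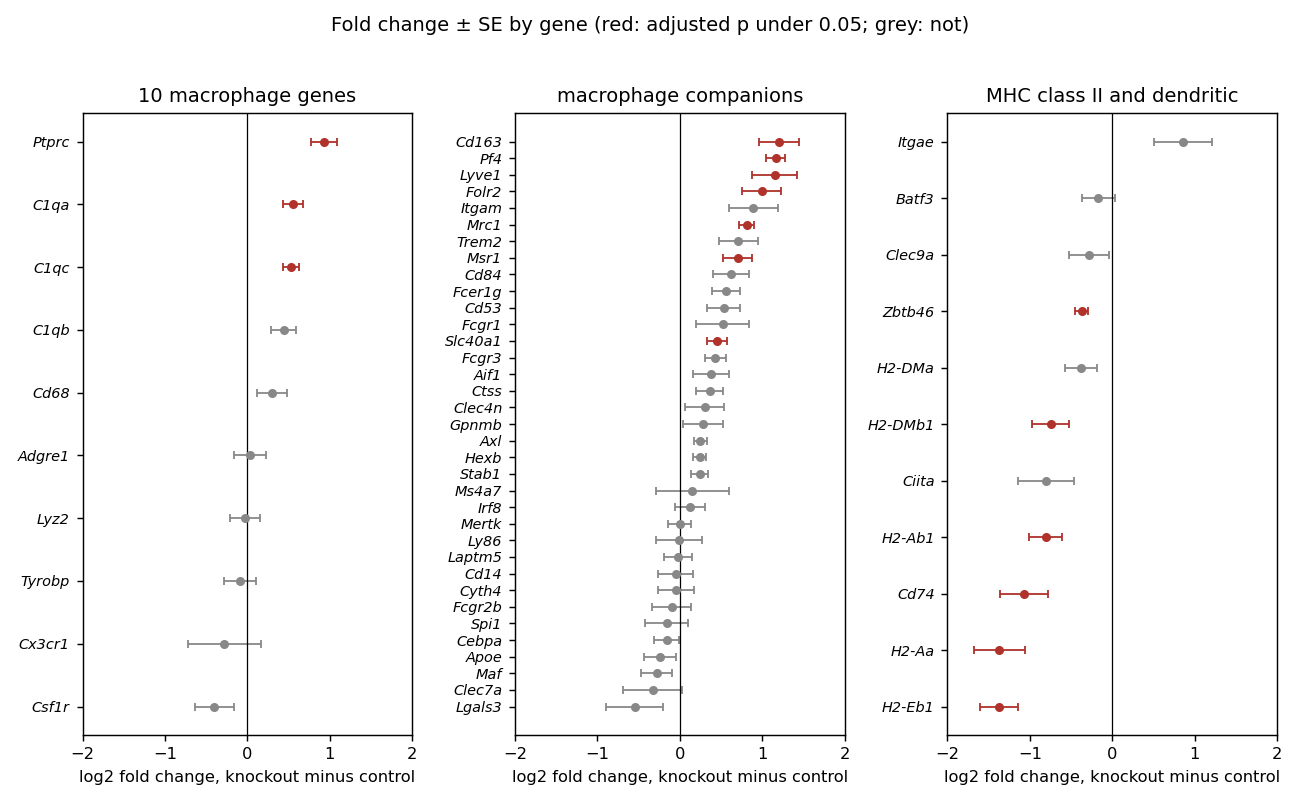
Log2 fold change (horizontal axis, knockout minus control, ± SE) of the 10 macrophage genes, of 35 of the 36 further macrophage genes and of 11 MHC class II and dendritic cell genes, with 1 row per gene. Red marks an adjusted p under 0.05: 3 of 10 and 7 of 35 to the right of 0, and 6 of 11 to the left.

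Of the signals that recruit or keep macrophages, Csf1 was higher. Among 14 tested ligands and chemokines, 3 were called higher and 2 lower, against 6.61% and 8.27% of all genes tested. Csf1, the main ligand of Csf1r and named after its values were seen, stood at 12.2 to 15.7 CPM in the controls and 16.2 to 21.9 CPM in the knockouts (0.52, SE 0.13, edgeR adjusted p 0.0320). Its call was lost without control replicate 1, 3 or 4 or knockout replicate 2 or 4 (adjusted p up to 0.0926). Il34, the other ligand, had −0.34 (adjusted p 0.234), and Cx3cl1, the ligand of Cx3cr1, −0.72 (0.166).

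Of the chemokines that myeloid cells release, Ccl6 rose from between 2.82 and 4.75 CPM to between 7.78 and 14 CPM (1.5, SE 0.22, edgeR adjusted p 0.0110). Ccl9 rose from between 2.09 and 5.33 CPM to between 8.89 and 18 CPM (1.71, SE 0.32, adjusted p 0.0172). Neither overlapped between groups. Mif, a cytokine that many cell types make, fell by 0.79 (adjusted p 0.0192), and Spp1, which tubule cells and macrophages express, by 2.5 (0.0348). With 1 library dropped, Ccl6 was called in 8 of 8 fits, Ccl9 in 5, Mif in 3 and Spp1 in 2. Inflammatory cytokine genes were barely detected, with Il1b, Tnf and Il6 at 0.465 CPM or less in every library.

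Several partners of C1q rose. Of 18 tested complement genes outside the C1q cluster, 6 were called higher and 1 lower, with a median log2 fold change of 0.60. Over all genes tested, 6.61% were called higher and 8.27% lower. C1ra encodes a protease that C1q activates, and it stood at 17.7, 22.2, 19.9 and 20.8 CPM in the controls and at 26.2, 36.3, 31.4 and 33.0 CPM in the knockouts (0.65, SE 0.11, edgeR adjusted p 0.0149). Serping1, which encodes the inhibitor of the C1 proteases, rose from between 88.7 and 129 CPM to between 152 and 190 CPM (0.72, SE 0.12, adjusted p 0.0129). Cfi, a protease that inactivates C3b and C4b, fell by 1.32 (adjusted p 0.0187). C1s1 (0.67), C3 (1.83), Cd55 (0.69) and Cd46 (0.63) were the other genes called higher, at adjusted p values of 0.0222, 0.0286, 0.0428 and 0.0394, and they were named after their values were seen. With 1 library dropped, Serping1 was called in 7 of 8 fits, C1ra in 6, Cfi in 5 and C1s1 in 3. C3, Cd55 and Cd46 were each called in only 2 of 8. Fibroblasts and tubule cells make many of these proteins, so the list does not mark macrophages.

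Of 21 tested signalling genes downstream of Tyrobp and Csf1r, 1 was called higher and 0 lower, and 4 had an unadjusted p under 0.05 (edgeR). Over all genes tested, 6.61% were called higher and 8.27% lower, so a single call in this list is not unusual. DESeq2 called 2 of the list higher and 0 lower, where 10.1% of genes were called higher, and the median was 0.02. Syk, the kinase that binds phosphorylated Tyrobp, stood at 16.3 to 18.2 CPM in the controls and at up to 22.9 CPM in the knockouts, with no overlap (0.29, SE 0.09, edgeR adjusted p 0.0489). With 1 library dropped it was called only without control replicate 2 (adjusted p 0.0330, against up to 0.124). Other genes of most leukocytes had log2 fold changes that were not called: Laptm5 −0.02 (adjusted p 0.948), Hcls1 0.03 (0.906), Rac2 −0.01 (0.985), Itgb2 0.54 (0.256) and Cd53 0.53 (0.0940). The difference between Ptprc and these genes was not tested.

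Markers of other leukocytes were examined because Ptprc is not limited to macrophages. Of 26 lymphoid genes, 8 passed the filter, and the summed level was 22.9 to 24.4 CPM in the controls and 22.4 to 25.5 CPM in the knockouts. The T cell genes Cd3d, Cd3e and Cd3g and the B cell gene Ms4a1 were each at 0.278 CPM or less in every library. Other genes of the list stood higher and were not called. Lck was at 7.64 to 9.19 CPM, Cd79b at 5.57 to 6.99 CPM and Cd79a at 1.45 to 3.73 CPM over the libraries. Jchain was the only lymphoid gene called (1.04, edgeR adjusted p 0.0465), at 1.15 CPM or less, and DESeq2 called none of this list. Jchain kept its call in only 1 of 8 fits with 1 library dropped. Over all genes tested, 6.61% were called higher in edgeR. Neutrophil and mast cell genes summed to 77.0 to 104 CPM in the controls and 70.7 to 97.9 CPM in the knockouts. Of 15 tested, 0 were called higher and 1 lower, against 8.27% called lower over all genes tested. The called gene was Ms4a2 of mast cells and basophils (−2.33, adjusted p 0.0192), which kept its call in 4 of 8 fits with 1 library dropped. Other mast cell genes of the list were not called: Cpa3 (−0.24), Cma1 (−0.06), Kit (−0.05), Tpsb2 (0.11) and Mcpt4 (0.26).

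In the monocyte list, 1 of 9 tested genes was called higher and 1 lower, against 6.61% and 8.27% of all genes tested. F13a1, the coagulation factor chain of monocytes and resident macrophages, stood at 18.7, 17.8, 19.3 and 10.2 CPM in the controls and at 29.8, 33.4, 27.6 and 32.4 CPM in the knockouts (0.90, SE 0.19, edgeR adjusted p 0.0207). Ace, which is also abundant in the proximal tubule, fell by 2.44 (adjusted p 0.0264). F13a1 was called in 3 of 8 fits with 1 library dropped, and Ace in 2 of 8. Ccr2 and Ly6c2, a receptor and a surface marker of inflammatory monocytes, were at 1.64 CPM or less and were not called (adjusted p 0.472 and 0.265).

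The genes whose pattern over the 8 libraries was most like the mean log2 level of the 10 members were Epsti1 (Pearson r 0.981), Gbp9 (0.976), Calu (0.940), Ccdc36 (0.929) and Parm1 (0.929). This is a description over 8 libraries that share depth and tissue composition. None of these 5 was called, their log2 fold changes running from 0.03 to 0.44 and their edgeR adjusted p values from 0.208 to 0.687.

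**Figure D4:**
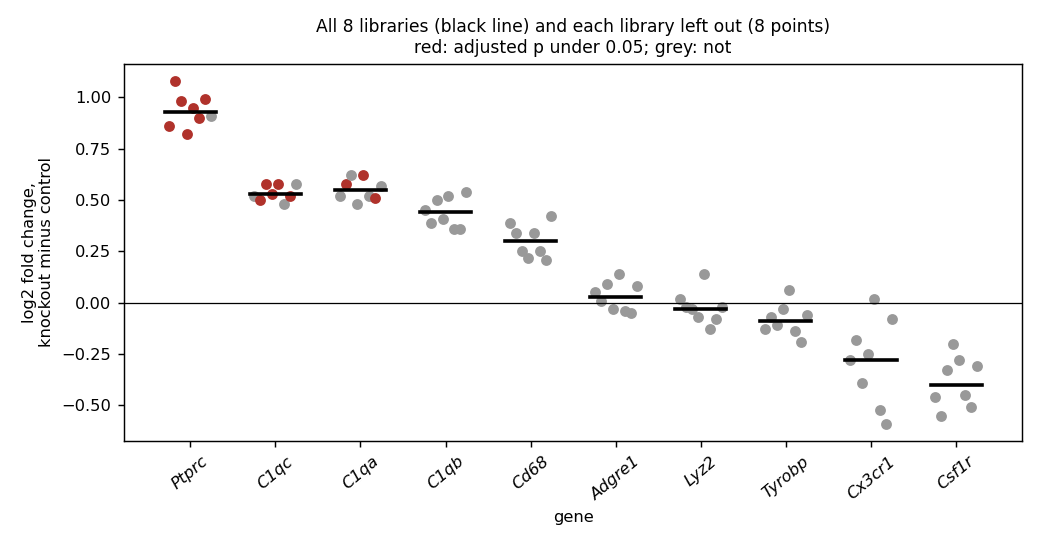
Log2 fold change (vertical axis, knockout minus control) of each of the 10 genes with all 8 libraries (black line) and with each library dropped in turn (points), red where the adjusted p was under 0.05. Ptprc, C1qa, C1qb, C1qc and Cd68 stay above 0 and Csf1r below 0, while Adgre1, Lyz2, Tyrobp and Cx3cr1 have points on both sides.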

How the data were processed

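Messenger RNA libraries from 4 control and 4 knockout kidneys were compared. The deposited values are whole-number counts of reads for each gene, without normalization, beside gene coordinates and exon length, per the file headers. The submitters' processing notes name GRCm38, Trimmomatic 0.36, STAR 2.5.2b, featureCounts of Subread 1.5.2 and DESeq2; strand and multi-read settings are not given in the sources used here. The table of the series and those per library differed in 0 cells, and 48970 of 49315 IDs had a GENCODE M21 symbol.

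Library totals were adjusted with TMM factors (trimmed mean of M values), low genes removed by filterByExpr (18485 kept) and groups compared with edgeR 4.0.16 (R 4.3.3; quasi-likelihood), with Benjamini-Hochberg adjustment over all genes tested. An adjusted p under 0.05 is a call. Where a sentence names no tool, its adjusted p is from edgeR. Standard errors and 95% intervals derive from the F statistic. On simulated data of 18485 genes for this comparison, 83% of 2-fold changes were recovered. The changed genes there were drawn only from more highly expressed genes, and every gene was given the same spread between libraries. That share therefore does not hold for members as low as Adgre1, Cd68, Tyrobp and Cx3cr1, nor for uneven ones. CPM values are TMM-scaled; sums are over all matched genes of a list, and counting adds to the error of low genes. Alternatives were DESeq2 1.42.0, other scalings and filters, the replicate number as a block, 2 covariates and libraries left out.

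The members and the 16 other lists (274 genes, of which 272 matched) were chosen with earlier results of these data known. Named are all members, up to 3 called genes with the smallest adjusted p per list (or else the single smallest), the 5 genes of at least 1 CPM most correlated with the mean of the members, and Kdm1a. Picks from the lists of tubule, endothelium, fibroblast, adrenal, germline, red blood cell, cell cycle and Y-linked genes are not named. Those lists are given only as sums, counts of genes or medians. Other genes are included to describe a role. A few results on listed genes and on neighbours of Kdm1a are not reported here.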

Additional observations from a re-analysis of the deposited data

How the results depend on the processing

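Over the 18 alternatives, the 10 macrophage genes gave 180 values, of which 147 kept direction and side of the threshold, 12 lost a call, 5 gained one and 16 turned direction. Ptprc, C1qa, C1qb and C1qc kept their direction in all 18. The 3 members called higher remained 3 or became 4 in the other scalings, filters, DESeq2 and covariates, and numbered 0 without both knockout replicates 1 and 4. Leaving out single libraries gave 0 to 3. No member was called lower except Csf1r without both control replicate 2 and knockout replicate 3 (1 gene). All calls over the table numbered 4494 with DESeq2, 1209 with the adrenal covariate, 7903 without control replicate 2 and knockout replicate 3, and 1 without knockout replicates 1 and 4, against 2751. They ran from 153 (without knockout replicate 4) to 7084 (without control replicate 2) with 1 library left out. Macrophage companions called higher (7) numbered 11 with library totals, 12 with DESeq2, 4 with the adrenal covariate and 0 without knockout replicates 1 and 4, and 2 to 10 with 1 library left out. MHC class II and dendritic genes called lower (6) numbered 3 with the Y-linked covariate, 2 with the adrenal covariate and 0 without knockout replicates 1 and 4, and 1 to 8 with 1 library left out. Fewer libraries leave fewer degrees of freedom; the cause of the other changes was not tested. With library totals in place of TMM, 1571 genes were called higher and 1174 lower, against 1222 and 1529.

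Turned values were uncalled throughout. Adgre1 was −0.10 without control replicate 2 and knockout replicate 3, and −0.05 to 0.14 with 1 library left out. Tyrobp was 0.03 with the adrenal covariate, 0.14 without knockout replicates 1 and 4, and −0.19 to 0.06 with 1 library left out. Lyz2 was 0.04 with library totals, 0.02 with the Y-linked covariate, 0.16 with the adrenal covariate, 0.21 without knockout replicates 1 and 4, and −0.13 to 0.14 with 1 library left out. Cx3cr1 was 0.00 with the adrenal covariate, 0.34 without knockout replicates 1 and 4, and −0.59 to 0.02 with 1 library left out. With the replicate number as a block, 3 members and 3229 genes were called. Deviations from the group mean in libraries of equal number had r of −0.11, 0.33, 0.23 and −0.06 for numbers 1 to 4. Between unequal numbers r ran from −0.47 to 0.40. The labels state no pairing, and these values do not decide whether the numbers pair the libraries.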
